A study of Mus musculus with 18 samples.

Results

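Liver microRNAs (miRNAs) were compared between mice given 270 mg/kg of monocrotaline (MCT 270) and control mice, on 6 single-colour arrays of the 18 arrays in the study. The members were chosen by array label, 3 MCT 270 and 3 control arrays, and by probe name: all 1122 probes named for mouse miRNAs, of 1178 probes on the array. Monocrotaline is a plant pyrrolizidine alkaloid that liver cytochrome P450 enzymes convert to a reactive pyrrole, and is known for injuring the sinusoidal endothelium. All mice were male C57BL/6 of 6 weeks, and the labels name no altered allele. They went without food for 12 h, then received a single oral dose of the compound or, in the control group, saline, and were fed again. Livers were taken 48 h later, and each group held 8 mice, of which the labels name 3 per group on the arrays. The remaining arrays are 3 miRNA arrays of mice given 330 mg/kg (MCT 330) and 9 mRNA arrays labelled as the same mice. The labels number the arrays of a group as different mice. The p-values measure only the spread between these arrays. On the mRNA arrays labelled as the same mice, replicates 2 and 3 of each group differed by less than repeated spots of 1 array. Whether replicates 2 and 3 are separate mice on the miRNA arrays too was not tested; with those replicates averaged in each group, 26 probes were called in place of 131.

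A miRNA is cut from a hairpin transcript by the nucleases Drosha and Dicer, and either arm of the hairpin, named 5p or 3p, can be loaded into an Argonaute protein. The loaded strand pairs with messenger RNAs mainly through its seed, bases 2 to 8, so that miRNAs with the same seed form a family with overlapping targets. In liver, miR-122 is the most abundant miRNA of hepatocytes, miR-126 marks endothelium, miR-143 and miR-199a mark stellate and smooth muscle cells, and miR-223 marks myeloid cells. Bulk tissue was measured, so fewer cells of a type and less of a miRNA per cell cannot be told apart.

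The mature sequences that the comparisons turn on are shown here for their seeds, for single-base differences between relatives and for repeats. The sequences are RefSeq's for GRCm38.p6, written 5′ to 3′, with the seed in capitals. Among miRNAs that were higher at MCT 270, and 2 relatives of them (let-7a-5p and miR-181b-5p), were:
miR-137-5p: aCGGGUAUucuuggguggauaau
miR-690: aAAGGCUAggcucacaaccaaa
miR-3084-5p: gUUGAAGGuuaauuagcagagu
miR-691: aUUCCUGAagagaggcagaaaa
miR-34c-3p: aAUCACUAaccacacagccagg
let-7e-5p: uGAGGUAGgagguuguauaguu
let-7a-5p: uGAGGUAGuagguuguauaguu
miR-181d-5p: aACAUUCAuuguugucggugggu
miR-181b-5p: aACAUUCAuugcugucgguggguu
Among miRNAs that were lower were:
miR-188-3p: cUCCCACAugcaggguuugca
miR-493-5p: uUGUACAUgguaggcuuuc
miR-463-3p: uGAUAGACaccauauaagguag
miR-743a-3p: gAAAGACAccaagcugaguaga
miR-878-3p: gCAUGACAccacacuggguaga
miR-489-3p: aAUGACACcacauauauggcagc
miR-344i: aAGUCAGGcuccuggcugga
miR-344b-5p: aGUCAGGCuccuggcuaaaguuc
From the repeat-rich miR-466, miR-467 and miR-669 families came:
miR-669n: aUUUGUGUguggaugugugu
miR-467g: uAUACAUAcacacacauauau
miR-466i-3p: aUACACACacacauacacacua
In all, 392 of the 490 tested probes matched 1 mature sequence in the table.

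Between 435 and 510 mouse probes per array reached a signal of 30 over background, the median signal of the tested probes was 140.5 to 167.25, and the number of arrays limits the precision. MCT 270 replicate 1 stood apart from its group. It correlated with replicates 2 and 3 at r = 0.905 and 0.916 over the tested probes, whereas replicates 2 and 3 correlated at 0.986, and it was lower than their mean by over 1 log2 unit at 51 probes and higher at 17. The 3 control arrays correlated at 0.945 to 0.973. Where a named value rested on MCT 270 replicate 1, the value without it is also given.

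**Figure D1:**
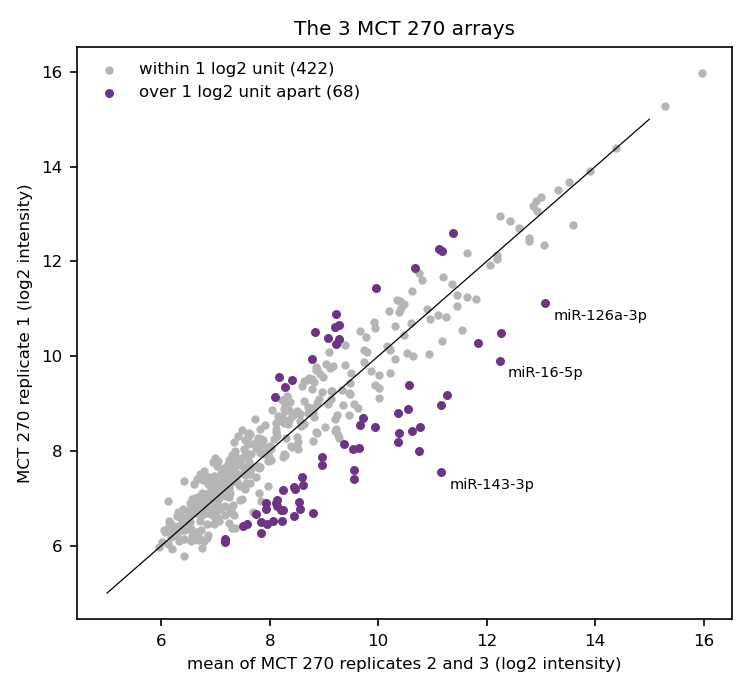
Normalized level (log2 intensity) of the 490 tested probes on MCT 270 replicate 1 (vertical) against the mean of replicates 2 and 3 (horizontal), with the line of equality. The 68 purple probes lie over 1 log2 unit away, and miR-143-3p, miR-16-5p and miR-126a-3p are among those that were lower on replicate 1.

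Of the 1122 mouse probes, 490 were tested because every array of a group, control, MCT 270 or MCT 330, read at least 30 over background. The other 632 did not reach this and were not tested. With limma and Benjamini-Hochberg adjustment over the 490, 131 probes (26.7%) passed an adjusted p of 0.05, of which 78 (15.9%) were higher at MCT 270 and 53 (10.8%) lower. The 3 MCT 270 arrays lay wholly above the 3 control arrays at 130 probes (26.5%) and wholly below them at 112 (22.9%), and all 131 called probes were among these. At least a 2-fold change was seen for 29 of the higher and 33 of the lower calls, and at least 4-fold for 8 and 4. The median log2 fold change over all tested probes was -0.05. The filter may have favoured some calls. Of the control and MCT 270 groups, 18 of the higher probes passed it only in MCT 270 and 18 of the lower only in controls. These counts leave the MCT 330 arrays aside. Some of these probes, the largest rise and the largest fall among them, also reached 30 on every MCT 330 array.

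The number of calls and the split of higher against lower depended on single arrays and on the scaling. The direction of the 131 calls did not turn. Their groups did not overlap, so leaving out or averaging arrays could hardly have turned it. Leaving out control replicate 1 left 28 calls (17 higher, 11 lower), leaving out control replicate 2 left 36 (22 and 14), and leaving out MCT 270 replicate 3 left 69 (44 and 25). Without MCT 270 replicate 1 there were 111 calls (61 and 50), and without MCT 270 replicate 2 there were 91 (61 and 30). Under quantile normalization 59.5% of the calls were higher, against 44% under median scaling and 39.7% with the authors' normalized values, whose medians over all probes lay at -0.18 and -0.28. Of the 131, 90 were tested in all 20 alternative settings and 41 in at least 18, since stricter filters dropped them, and all kept their direction wherever they were tested.

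**Figure D2:**
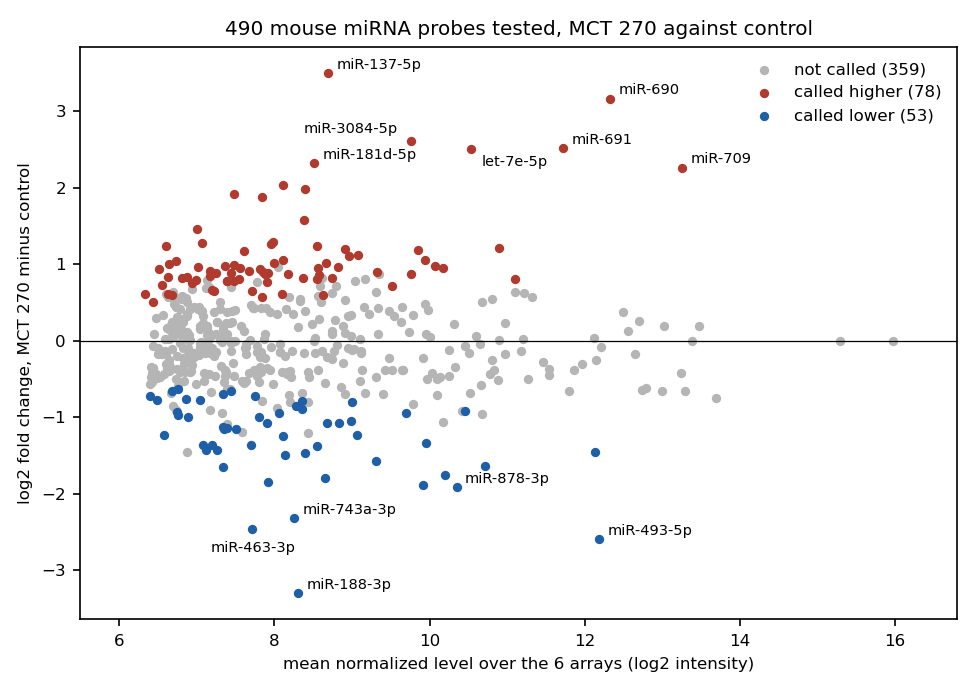
Log2 fold change, MCT 270 minus control (vertical), against the mean normalized level over the 6 arrays (log2 intensity, horizontal) for the 490 tested mouse probes. Red points were called higher (78), blue points lower (53) and grey points were not called (359).

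The largest rise was that of miR-137-5p, an arm of the miR-137 hairpin, which is best known from neurons. Its signal over background was 23.5, 77 and 127.5 on the control arrays and 2217.5, 1201.5 and 776 on the MCT 270 arrays. The groups were far apart, with a log2 fold change of 3.50 ± 0.51 (SE over 3 against 3 arrays; limma adjusted p = 0.00271). The MCT 330 arrays, which were set against the same controls, read 291.5, 246.5 and 72.

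miR-690 and miR-691, a pair of mouse miRNAs encoded far apart on chromosome 16, were higher at MCT 270. miR-690 read 478, 2370 and 3695 in controls and 18316, 17768 and 21755.5 at MCT 270, a log2 fold change of 3.17 ± 0.59 (limma adjusted p = 0.00778). Its 3 MCT 270 arrays held the same rank and so the same normalized level, which makes its SD there 0 by construction. miR-691 read 609.5, 1725 and 2198.5 in controls and 7716, 8256.5 and 10094 at MCT 270, a log2 fold change of 2.52 ± 0.37. In both miRNAs control replicate 1 was the lowest control, and every MCT 270 array lay above every control.

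miR-3084-5p read 99, 414 and 546.5 in controls and 3091, 1728 and 1182.5 at MCT 270, a log2 fold change of 2.61 ± 0.53. miR-709, reported as a nuclear miRNA, read 2364, 5581 and 7202.5 in controls and 50083.5, 20709.5 and 27969.5 at MCT 270, a log2 fold change of 2.27 ± 0.38. As with miR-690, its 3 MCT 270 arrays held the same rank, so its SD there is 0 by construction. The other arm of the miR-3084 hairpin behaved differently: miR-3084-3p was bright in all 6 arrays (1141.5 to 6442), with a log2 fold change of -0.38 ± 0.43 (0.25 without MCT 270 replicate 1), and was not called.

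miR-34c-3p, the passenger arm of a hairpin that p53 induces, read 54.5, 84.5 and 120 in controls and 787, 493 and 342 at MCT 270, a log2 fold change of 2.04 ± 0.30 (limma adjusted p = 0.00271). Its guide arm miR-34c-5p was near background on all 6 arrays (14.5 to 32) and was not tested. miR-34b-3p, which carries the same seed as miR-34c-3p, had a log2 fold change of 0.34 ± 0.28 and was not called. miR-34a-5p, the main p53-responsive member in liver, read 187.5, 350 and 215 in controls and 197.5, 639 and 806.5 at MCT 270. Its lowest MCT 270 array lay among the controls, and the log2 fold change of 0.82 ± 0.41 did not pass (limma adjusted p = 0.156). That low array was MCT 270 replicate 1, and without it miR-34a-5p was called, at 1.32 ± 0.28 (limma adjusted p = 0.0183).

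The remaining probes among the 12 with the largest rise were miR-3473a, miR-124-3p, miR-883b-5p and miR-1843a-5p, besides let-7e-5p and miR-181d-5p, which are described with their families. miR-124-3p, the typical miRNA of neurons, read 20, 36.5 and 52.5 in controls and 541.5, 230 and 213.5 at MCT 270, a log2 fold change of 1.92 ± 0.31. miR-1843a-5p rose by 1.58 ± 0.18, with the smallest SE of the 12, from 113, 172.5 and 137 to 573, 559 and 474.5. miR-3473a rose by 1.99 ± 0.55, but this call was lost without control replicate 1 (1.83, adjusted p = 0.106), control replicate 2 (1.76, adjusted p = 0.0963), MCT 270 replicate 1 (1.40, adjusted p = 0.0626) or MCT 270 replicate 3 (2.14, adjusted p = 0.0526).

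**Figure D3:**
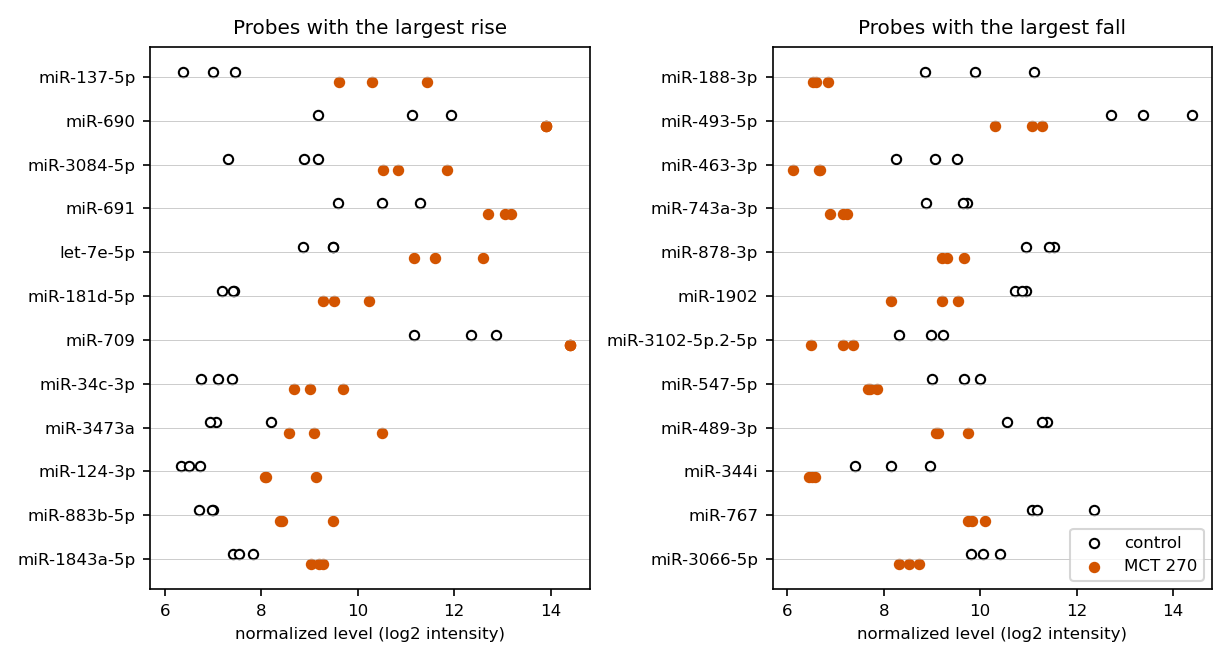
Normalized level (log2 intensity) on each array for the 12 probes with the largest rise (left) and the 12 with the largest fall (right) among those called. Open points are the 3 control arrays and filled points the 3 MCT 270 arrays, and in every row the groups do not overlap.

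The largest fall was that of miR-188-3p, which is encoded in an intron of the chloride transporter gene Clcn5 on chromosome X. It read 2304, 946 and 426 in controls and 22.5, 54.5 and 30.5 at MCT 270, so that the treated arrays were at or near background. The log2 fold change was -3.30 ± 0.46 (limma adjusted p = 0.00243). Other miRNAs of the same cluster, within 10 kb steps at chrX:7237695-7248012, were not called: miR-500-3p lay at -0.16 ± 0.29 (0.17 without MCT 270 replicate 1), miR-500-5p at -0.52 ± 0.19 and miR-362-3p at 0.15 ± 0.23. The MCT 330 arrays read 35, 49.5 and 61 for miR-188-3p.

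A second group of fallers came from a testis-rich miRNA cluster at chrX:66776760-66802007. miR-743a-3p read 745.5, 735 and 427 in controls and 72, 56.5 and 78.5 at MCT 270, a log2 fold change of -2.32 ± 0.25 (limma adjusted p = 0.00124). miR-463-3p read 582, 451 and 255 against 5.5, 41 and 35, a log2 fold change of -2.46 ± 0.33. miR-878-3p read 2811, 2742 and 1801.5 against 556.5, 633.5 and 794.5, a log2 fold change of -1.92 ± 0.22.

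The cluster did not move as a unit. Of its 9 tested probes, from 7 miRNA genes, 4 were lower and 2 higher. The fourth faller was the other arm of miR-743a, miR-743a-5p. It read under 30 over background on every MCT 270 array and was at least 1.54-fold lower. miR-883b-5p rose by 1.88 ± 0.30, from 50.5, 77 and 74 to 694.5, 303 and 283.5. miR-881-3p, dim in every array, was the other probe called higher (at least 1.19-fold), while its partner arm miR-881-5p had a log2 fold change of 0.09 ± 0.22.

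The 3 largest fallers of that cluster share a stretch of sequence with miR-489-3p, which lies in another chromosome's Calcr intron. The letters GACACC stand at base 5 of miR-743a-3p and miR-878-3p, base 6 of miR-463-3p and base 4 of miR-489-3p, so the shared letters straddle the end of the seed. miR-489-3p read 2692.5, 2520.5 and 1524.5 in controls and 801, 520.5 and 535 at MCT 270, a log2 fold change of -1.75 ± 0.33; without control replicate 1 its adjusted p was 0.0507. These letters, searched on the miRNA strand, occurred in 7 of the 392 matched sequences (1.79%), of which 4 were lower and 0 higher; the others were miR-667-3p (-0.52 ± 0.26), miR-138-2-3p (-0.37 ± 0.24) and miR-3090-3p (-0.03 ± 0.18). The stretch was picked after the values were seen. miR-425-5p, which has the same seed as miR-489-3p, had a log2 fold change of 0.17 and was not called.

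miR-493-5p, from the imprinted Dlk1-Dio3 region of chromosome 12, was the brightest of the strong fallers. It read 18775, 10568.5 and 5721 in controls and 1057, 2721.5 and 1896.5 at MCT 270, a log2 fold change of -2.60 ± 0.44 (limma adjusted p = 0.0056). Of 34 tested probes of that region, 7 were higher and 5 lower (35.3% called, against 26.7% over all probes), and the median was -0.18.

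The other probes with the largest fall were miR-1902 (-1.88 ± 0.37), miR-3102-5p.2-5p (-1.84 ± 0.45), miR-547-5p (-1.80 ± 0.29), miR-344i (-1.66 ± 0.33), miR-767 (-1.64 ± 0.45) and miR-3066-5p (-1.57 ± 0.33). Without control replicate 1, 4 of these were no longer called: miR-1902 (-1.81, adjusted p = 0.0539), miR-3102-5p.2-5p (-1.67, adjusted p = 0.0865), miR-767 (-1.21, adjusted p = 0.106) and miR-3066-5p (-1.41, adjusted p = 0.0654). miR-3102-5p.2-5p was also lost without control replicate 2 (-1.78, adjusted p = 0.0656). miR-767 was also lost without control replicate 2 (-1.87, adjusted p = 0.0557), MCT 270 replicate 2 (-1.55, adjusted p = 0.0585) or MCT 270 replicate 3 (-1.61, adjusted p = 0.068). miR-547-5p fell from 975.5, 746.5 and 466.5 to 144.5, 155 and 166.

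miR-344i belongs to a mouse family on chromosome 7 whose 5p arms fell together. miR-344i read 400.5, 224 and 120 in controls and 23.5, 31 and 21.5 at MCT 270. miR-344-5p fell by 1.47 ± 0.33, miR-344b-5p by 1.38 ± 0.31 and miR-344f-5p by 1.14 ± 0.27. Of the 3 tested probes for 3p arms, miR-344h-3p was higher at 1.12 ± 0.34, and miR-344d-3p (0.68 ± 0.24) and miR-344e-3p (0.51 ± 0.21) were not called. The 5p arms are near-identical at their start, as the printed miR-344i and miR-344b-5p show, and the part of cross-hybridization in these values was not tested.

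The let-7 family, the abundant differentiation-linked miRNAs that share the seed GAGGUAG, did not move together. let-7e-5p read 375, 678 and 666.5 in controls and 5244, 2447 and 2793 at MCT 270, a log2 fold change of 2.51 ± 0.34 (limma adjusted p = 0.00233). let-7a-5p, which differs from let-7e-5p only by the substitution G9U (counted from the 5′ end of let-7e-5p), read 763, 683 and 557 in controls and 434, 368.5 and 162 at MCT 270. It fell by 1.04 ± 0.34 (limma adjusted p = 0.0453), a call held by a narrow margin and lost when any one of control replicates 1, 2 and 3 or MCT 270 replicates 2 and 3 was left out (log2 fold changes -1.18 to -0.73, adjusted p 0.0536 to 0.16).

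The other 7 members with that seed had log2 fold changes from -0.80 ± 0.33 (let-7f-5p) to 0.57 ± 0.25 (let-7g-5p) and none was called. On the MCT 330 arrays let-7e-5p read 704.5, 758.5 and 737, just above its control range. The other miRNAs of the let-7e cluster at chr17:17830194-17830840 were not called: miR-99b-5p at -0.39 ± 0.23, miR-99b-3p at -0.44 ± 0.19 and miR-125a-5p at -0.50 ± 0.38 (0.03 without MCT 270 replicate 1). Over all 16 tested let-7 and miR-98 probes, 1 was higher and 3 lower (25% called), the other fallers being the 3p arms let-7b-3p (-0.77 ± 0.20) and let-7d-3p (-1.07 ± 0.35). let-7b-3p was lost without any one array other than MCT 270 replicate 1 (adjusted p 0.0509 to 0.0657), and let-7d-3p without any one array (adjusted p 0.0542 to 0.179).

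In the miR-181 family, known from lymphocyte and vascular biology, 1 of 3 tested members with the shared seed was called. miR-181d-5p read 90, 117 and 121.5 in controls and 1024.5, 743 and 575.5 at MCT 270, a log2 fold change of 2.33 ± 0.28 (limma adjusted p = 0.00127). miR-181b-5p, which differs from it by the substitution U12C (counted from the 5′ end of miR-181d-5p) and 1 added base at the 3′ end, read 97.5, 52 and 34.5 in controls and 22.5, 27.5 and 23.5 at MCT 270. It read under 30 over background on every MCT 270 array. Its normalized levels overlapped between the groups, the log2 fold change was -0.34 ± 0.23 (limma adjusted p = 0.291), and it was not called. miR-181a-5p, with 4 substitutions, had a log2 fold change of -0.53 ± 0.24 (-0.36 without MCT 270 replicate 1) and was not called. The MCT 330 arrays read 190, 192 and 86.5 for miR-181d-5p.

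Across all shared seeds, 35 seeds were carried by 2 or more tested miRNAs, 96 probes in all. Over all matched probes 12% were higher and 12.5% lower, against 15.9% and 10.8% over all 490 tested. A seed with several members can therefore hold a call at the general share. At 12 of the seeds at least 1 member was called, at 2 members were called in opposite directions (the let-7 seed, and a seed shared by miR-668-5p and miR-467h), and at 1 every member was called the same way (miR-344-5p and miR-344b-5p). The seed AAAGUGC of miR-17-5p and miR-20a-5p (6 members, -0.47 to 0.45) and the seed AGCAGCA of miR-15 and miR-16 (5 members, -0.66 to 0.39) had no call.

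**Figure D4:**
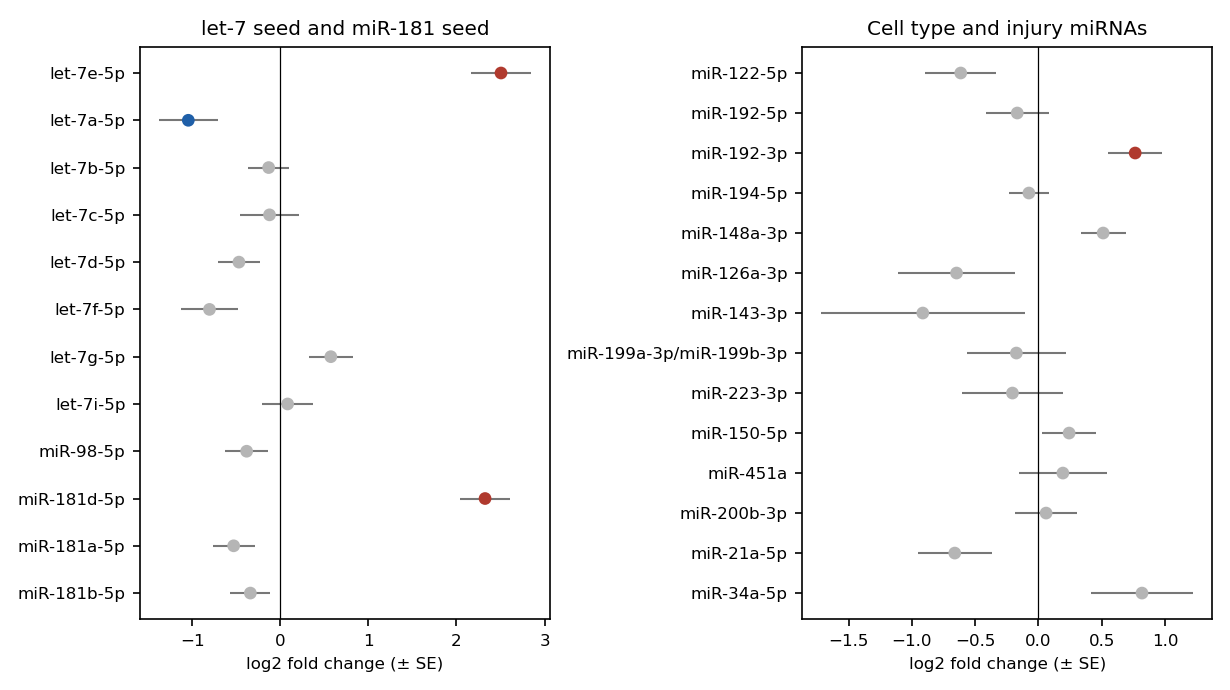
Log2 fold change, MCT 270 minus control, with its SE (bars) for miRNAs with the let-7 or miR-181 seed (left) and for cell type and injury miRNAs (right). Red points were called higher, blue lower and grey were not called; let-7e-5p and miR-181d-5p stand at 2.51 and 2.33.

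The probes for miR-297, miR-466, miR-467, miR-669 and miR-1187 were called in 1 direction. These families of repeat-like miRNAs are best known from a large cluster in an intron of Sfmbt2 on chromosome 2. Of 50 tested probes (73 on the array), 29 were higher and 0 lower (58% called, against 26.7% over all probes), with a median log2 fold change of 0.78 against -0.05 over all probes. miR-669n read 223, 268.5 and 380.5 in controls and 844.5, 602 and 665 at MCT 270, a log2 fold change of 1.11 ± 0.21 (limma adjusted p = 0.00808). miR-669e-5p read 64, 84 and 101.5 against 204, 211.5 and 193, a log2 fold change of 0.95 ± 0.17. The shared probe of miR-466a-3p, miR-466b-3p, miR-466c-3p, miR-466e-3p and miR-466p-3p had the largest rise of the group, 1.27 ± 0.26, and the shared probe of miR-297a-3p, miR-297b-3p and miR-297c-3p rose by 0.93 ± 0.20.

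Members were called both inside and outside Sfmbt2. The genes of 37 probes lie only inside Sfmbt2, and 19 of these were higher (51.4%, median 0.71). The genes of 9 probes lie only elsewhere, among them miR-669n (chr3:115979905-115979924) and miR-467g (chr5:34732872-34732892), and 7 of these were higher (77.8%, median 0.88). A further 3 probes have genes in both places (2 higher), and 1 was not matched. Only 8 of the 50 probes matched 1 mature sequence, all with genes only elsewhere, and those printed above hold runs of alternating bases. The sequences of the probes inside Sfmbt2 were not read. Separately, 8 of the 50 probes name several miRNAs at once, so the probes are not independent readings and which member changed is uncertain.

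Runs of the alternating repeats GUGUGU or ACACAC, each in both of its overlapping phases and searched on the miRNA strand, occurred in 23 of the 392 matched sequences (5.87%), of which 9 were higher and 0 lower. Over all matched sequences 12% were higher and 12.5% lower. The 392 matched sequences include only 8 of the 50 probes above. Of the 16 that do not carry a miR-297, miR-466, miR-467 or miR-669 name, 3 were higher, namely miR-34c-3p, miR-489-5p and miR-32-3p. The calls among the 50 probes depended on single arrays: without control replicate 1, 4% were called, without control replicate 2, 6%, without MCT 270 replicate 1, 40%, and without MCT 270 replicate 3, 38%. Median scaling called 26% of them and averaging replicates 2 and 3 of each group 0%. The shared miR-466 probe (adjusted p = 0.0539) and the shared miR-297 probe (adjusted p = 0.0539) were among those lost without control replicate 1. The miR-297 probe was also lost without control replicate 2 (adjusted p = 0.0561). The median over the 50 lay between 0.49 and 1.13 in every setting run.

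**Figure D5:**
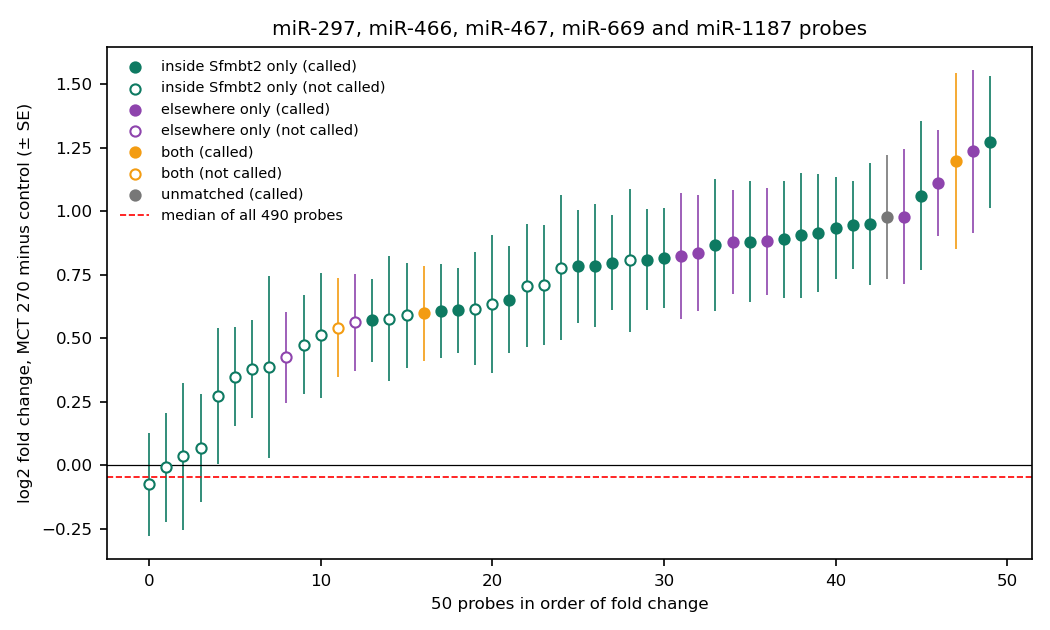
Log2 fold change, MCT 270 minus control, with its SE for the 50 probes of miR-297, miR-466, miR-467, miR-669 and miR-1187 in order of size. Filled points were called, colours give whether the genes lie inside Sfmbt2, and the dashed line is the median of all 490 probes (-0.05).

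The miRNAs that define hepatocytes were bright in both groups and mostly not called. miR-122-5p lay at a log2 fold change of -0.61 ± 0.28 (limma adjusted p = 0.126) and its partner arm miR-122-3p at 0.19 ± 0.23. The signals of miR-122-3p were 8043 to 11492.5 in controls and 11491.5 to 15624.5 at MCT 270. Of 12 tested hepatocyte probes 1 was higher (8.33% called): miR-192-3p, the minor arm of a hepatocyte and p53-linked hairpin, at 0.76 ± 0.21, a call lost without control replicate 1 or 3 or MCT 270 replicate 2 or 3 (adjusted p 0.0543 to 0.105). Its main arm miR-192-5p lay at -0.17 ± 0.25 and miR-148a-3p at 0.51 ± 0.18, which was called without control replicate 3 (0.64, adjusted p = 0.0388). On the mRNA arrays, Alb and Ttr, which mark hepatocytes, lay at -0.14 ± 0.18 and -0.02 ± 0.18 on the log2 scale.

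Of 10 tested probes in the endothelial list 2 were higher and 1 lower (30% called, near the 26.7% over all probes). miR-126a-3p, the defining endothelial miRNA, read 7062, 10131 and 7458 in controls and 1797, 9481 and 6969 at MCT 270, and its log2 fold change of -0.65 ± 0.47 was not called. The low value was that of MCT 270 replicate 1, and without that array the log2 fold change was 0.01 ± 0.21. miR-221-5p was at least 1.39-fold higher, being near background in controls. miR-24-3p rose by 0.81 ± 0.26 and miR-27a-3p, from the same clusters, fell by 0.94 ± 0.26.

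These 3 calls of the endothelial list, none of them from miR-126, were sensitive to single arrays. miR-221-5p was lost without control replicate 1 or 2 or MCT 270 replicate 2 or 3 (adjusted p 0.0509 to 0.0865). miR-24-3p was lost without any one array other than MCT 270 replicate 1 (adjusted p 0.0536 to 0.159), and miR-27a-3p without any one array other than MCT 270 replicate 2 (adjusted p 0.0507 to 0.104).

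None of the 7 stellate cell and fibroblast probes was called. miR-143-3p read 1430.5, 2462.5 and 1905 in controls and 124.5, 2321 and 2137 at MCT 270, a log2 fold change of -0.91 ± 0.80. MCT 270 replicate 1 was the low array, and without it the log2 fold change was 0.29. miR-145a-3p (0.51 ± 0.18) and miR-214-3p (0.46 ± 0.19) were not called either.

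Myeloid and inflammatory miRNAs showed 1 call among 8 tested probes (12.5%). miR-155-3p, the minor arm of an immune-activated hairpin, rose by 0.76 ± 0.20, from 30.5, 45.5 and 39.5 to 139.5, 75.5 and 74, although the call was lost without control replicate 1 or 2 or MCT 270 replicate 3 (adjusted p 0.0543 to 0.0865). The major arm miR-155-5p was at background (at most 11.5 on the 6 arrays) and was not tested. The neutrophil miRNA miR-223-3p read 324.5, 461.5 and 340 in controls and 379.5, 326.5 and 308 at MCT 270, and its log2 fold change of -0.21 ± 0.40 was not called. miR-146a-5p, which NF-kB induces, lay at -1.20 ± 0.51 (limma adjusted p = 0.11), its lowest value of 27.5 being on MCT 270 replicate 1; without that array it lay at -0.59 ± 0.38.

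No probe was called in 8 of the 19 lists, 48 tested probes in all: those of stellate cells, lymphocytes, erythroid cells, the epithelial miR-200 family, miR-29, miR-17-92, miR-15 and miR-16, and miR-26. Without MCT 270 replicate 1, miR-29b-3p was called lower (-1.21, adjusted p = 0.0452). Among markers of other tissues (muscle, neuron and pancreas), 6 of 27 probes were tested and miR-124-3p was the 1 call (16.7%); miR-375-3p, a miRNA of pancreatic islets, lay at 0.58 ± 0.23 (called without MCT 270 replicate 1, at 0.74, adjusted p = 0.0475) and miR-206-3p, of skeletal muscle, at 0.63 ± 0.27.

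Among injury-responsive miRNAs 1 of 10 was called (10%), the miR-221-5p already given. miR-21a-5p, the miRNA most often raised in injured liver, read 12206.5, 14579.5 and 9145.5 in controls and 7886.5, 9244 and 6817 at MCT 270. Its groups overlapped before normalization, and the log2 fold change was -0.66 ± 0.29 (limma adjusted p = 0.118). The hypoxia-linked miR-210-5p lay at -0.79 ± 0.34 and miR-31-5p at 0.53 ± 0.21. In the p53-responsive list of 10 tested probes, miR-34c-3p and miR-192-3p were higher (30% called in either direction). The 1 lower probe, miR-215-3p, read under 30 over background on every MCT 270 array and was at least 1.23-fold lower. miR-215-3p was lost without any one array other than control replicate 3 (adjusted p 0.0504 to 0.0865).

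Of the 14 metabolic miRNAs 1 was higher (7.14% called). miR-33-5p, encoded in an intron of the sterol regulator gene Srebf2 and known to repress cholesterol export, read 518, 842.5 and 514 in controls and 1120, 1355 and 1102.5 at MCT 270. The groups did not overlap, with a log2 fold change of 1.05 ± 0.22 (limma adjusted p = 0.0133; 0.98 and 0.0539 without control replicate 1). miR-370-5p lay at -0.67 ± 0.23 (adjusted p = 0.0519). In the miR-30 family the minor arm miR-30b-3p rose by 0.90 ± 0.24, while the other 9 tested probes, among them the hepatocyte-rich miR-30a-5p (-0.50 ± 0.18), were not called. miR-30b-3p was lost without control replicate 1 or 2 or MCT 270 replicate 1 or 3 (adjusted p 0.0517 to 0.0939).

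Both arms were tested for 77 hairpins, and 41 of their 154 arms (26.6%) were called, near the 26.7% over all probes. At 34 hairpins at least 1 arm was called. At 27 of the 34 only 1 arm was called, at 4 both arms were called the same way (miR-743a, miR-3068, miR-466i and miR-669e), and at 3 they were called in opposite directions (miR-489, miR-668 and miR-5616). miR-489-5p read under 30 over background on every control array and was at least 1.72-fold higher at MCT 270, while miR-489-3p fell. miR-668-3p rose by 0.81 ± 0.26 and miR-668-5p, under 30 over background on every MCT 270 array, was at least 1.55-fold lower.

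By genome position, matched miRNAs with single loci formed 25 clusters with steps of at most 10 kb, of which 14 held a call and 4 held calls in both directions. On chromosome 7, 10 of 30 matched probes were lower and 1 higher, on chromosome X 10 of 49 were lower and 5 higher, and on chromosome 12, 5 of 51 were lower and 12 higher, against 12.5% lower and 12% higher over all matched probes. These 3 of 19 chromosomes, the ones with the most calls among matched probes, were picked after the counts were seen. The 37 tested probes inside Sfmbt2 on chromosome 2, of which 19 were higher, did not match 1 sequence. They are in neither the cluster nor the chromosome counts. Base composition moved with the direction of the calls: the median GC content was 43.5% in the 47 matched probes called higher, 52.4% in the 49 called lower and 47.8% in the 296 not called. In the lowest class of GC (22.7% to 45.5%) 17.6% of 170 probes were higher and 7.65% lower, and in the highest class (54.5% to 94.7%) 5.43% of 129 were higher and 17.1% lower. The match to a sequence kept 47 of the 78 higher calls and 49 of the 53 lower calls, so it was uneven by direction. The part of base composition in these results was not tested.

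The mRNA arrays gave the levels of the miRNA machinery and of host genes. Control replicates 2 and 3, MCT 270 replicates 2 and 3 and the 3 MCT 330 replicates differed from one another by a robust SD of 0.042 to 0.0804 on the log2 scale, below the 0.0907 between repeated spots of 1 array, and each set was counted as 1 sample. With 2 control, 2 MCT 270 and 1 MCT 330 samples, 0 of 24808 genes passed limma's adjusted p of 0.05 (0%), and 4612 (18.6%) had an unadjusted p under 0.05. On simulated data with 2 against 2 samples and an assumed spread, 26% of 1-unit and 91% of 2-unit log2 changes were recovered. A gene that did not pass may therefore still have changed. Of 30 tested genes for miRNA processing and turnover, 2 had an unadjusted p under 0.05. Dis3l2, the exonuclease that degrades uridylated precursors of let-7, lay at -1.33 ± 0.18 (adjusted p = 0.0925). Its scaled log2 levels were 1.06, 1.20 and 1.22 on the control arrays and -0.05, -0.37 and -0.29 on the MCT 270 arrays, so that all treated arrays lay below the controls.

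Tut4, a uridyltransferase that marks let-7 precursors, lay at 0.54 ± 0.17 (unadjusted p = 0.028, adjusted p = 0.212). Dicer1 (-0.31 ± 0.18), Drosha (-0.23 ± 0.15) and Ago2 (-0.08 ± 0.21) had no unadjusted p under 0.05. None of the 5 tested host genes of called intronic miRNAs passed: Srebf2, the host of miR-33, lay at -0.28 ± 0.17, Clcn5, the host of miR-188, at 0.43 ± 0.51, Tmem245, the host of miR-32, at -0.45 ± 0.16 (adjusted p = 0.25), Wwp2, the host of miR-140, at 0.27 ± 0.19 and Tmem164, the host of miR-652, at -0.08 ± 0.18. For these hosts the called arms were miR-33-5p (1.05), miR-188-3p (-3.30), miR-32-3p (0.96), miR-140-3p (-0.94) and miR-652-5p (-1.13), so that 1 of the 5 pairs had the same sign.

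Reported target genes were also read. Of 14 tested miR-122 targets, 3 lay higher and 1 lower at an unadjusted p under 0.05, which 18.6% of all genes reached, with a median of 0.05 against -0.02 over all genes. G6pdx (3.23 ± 0.17), Ccng1 (1.85 ± 0.18) and Pkm (0.95 ± 0.17) were the 3 higher ones, the first of which also belongs to the antioxidant response and Ccng1 to the p53 response. At the same unadjusted p, 1 lay higher and 3 lower of 13 miR-34 targets (median -0.19), 1 higher and 5 lower of 16 miR-29 targets (median -0.23), and 0 higher and 1 lower of 10 miR-21 targets (median 0.01), and none of these genes passed the adjusted threshold.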

How the data were processed

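Liver miRNA was measured on 9 single-colour arrays (3 control, 3 MCT 270 and 3 MCT 330). The authors deposited, per the file headers, foreground intensity, background-subtracted intensity and a ratio normalized to a median. That ratio was checked to equal the subtracted intensity over each array's median of 368 probes. Scanner and software for the miRNA arrays are not given in the sources used here. Foreground was background-corrected (normexp, offset 50), taken to log2 and quantile normalized over 1178 probes. Mouse probes with a subtracted intensity of 30 or more throughout a group were fitted with limma 3.58.1 (R 4.3.3), 1 fit over 9 arrays, Benjamini-Hochberg adjusted p under 0.05. For a probe below 30 on every array of a group, an "at least" fold uses the dim arrays' lowest measurable level. No array depth exists; signal over background limits precision, and miR-3963 and miR-5100 were saturated on 8 and 1 of the 9 arrays.

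The mRNA processed intensity, which the authors made with Agilent Feature Extraction 11.0.1.1 per the submitters' processing notes, was taken to log2 minus each array's 75th percentile; a gene took its brightest probe. Members and lists were chosen with earlier results of these data known. Named probes are the 12 highest and 12 lowest called with groups that do not overlap, up to 4 of smallest p per list, and members of shared seeds. Replicate numbers did not pair the arrays (correlations of deviations 0.105, 0.542 and 0.0527). On simulated data of 490 probes, 66% of 1-unit and 100% of 2-unit log2 changes were recovered, with 3.49% of calls false. For 24808 genes with 2 against 2 samples and an assumed spread, 26% and 91% were recovered, with 7.14% of calls false. The simulated arrays were drawn independently, without normalization or error shared between arrays. These shares therefore do not cover the closeness of replicates 2 and 3.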

Additional observations from a re-analysis of the deposited data

Results flagged for a closer look

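Of the probes for viral miRNAs, which the comparison of mouse probes does not use, 2 were called above the controls. The probe mcmv-miR-m108-1-3p read 6, 70.5 and 115 in controls and 2168.5, 1041.5 and 1013.5 at MCT 270 (log2 fold change 3.70 ± 0.44, limma adjusted p = 0.00101), and mghv-miR-M1-3-3p read 37, 53 and 85.5 against 375, 180.5 and 158.5 (1.29 ± 0.27, adjusted p = 0.0113). Of 56 viral probes 14 could be tested, of which 2 were higher and 3 lower, against 15.9% higher and 10.8% lower among the mouse probes. The rise of mcmv-miR-m108-1-3p exceeded that of miR-137-5p (3.50), the largest among the named mouse probes. What the viral probes bound was not tested. The lower ones were mcmv-miR-M23-1-5p (-1.17 ± 0.28), mghv-miR-M1-3-5p (-1.47 ± 0.36) and mghv-miR-M1-6-5p (-0.82 ± 0.24).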

How the results depend on the processing

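All 131 calls kept their direction in each of the 20 alternatives that tested them (90 were tested in all 20). Since the groups of all 131 did not overlap, the kept direction is a weak check. Of the 131, 13 stayed called in all 20 and 65 in at least 15. Of the 24 probes with the largest changes, 18 stayed called in every setting that tested them. Against 131 calls (78 higher, 53 lower), the count was 86 (31 lower) with a signal of 30 or more on all 9 arrays, 257 (135 and 122) with array weights, 26 (12 and 14) with replicates 2 and 3 averaged, and 62 (29 and 33) with at least 2-fold; median scaling gave 44 higher and the authors' values 85 lower. Leaving out 1 array gave 28 to 117 calls (17 to 69 higher, 11 to 50 lower). Leaving out replicate 1 of every group, added after seeing the data, gave 77 (42 and 35). The replicate block gave 108 calls, and the numbers do not pair the arrays. Signs turned for uncalled probes. miR-200b-3p went to -0.11 (median scaling), -0.069 (no normalization), -0.14 (authors' values), -0.22 (array weights) and -0.042 (without replicate 1 of every group), and miR-26a-2-3p to -0.012 (median scaling). miR-16-5p went to 0.082 (weights) and 0.077 (without replicate 1), miR-26b-5p to 0.12 and 0.093 likewise, and miR-143-3p and miR-200a-3p to 0.038 and 0.11 in the latter. Leaving out single arrays, the ranges were -0.093 to 0.25 for miR-200b-3p, -1.11 to 0.10 for miR-16-5p, -0.80 to 0.26 for miR-26b-5p, -1.55 to 0.29 for miR-143-3p, -0.44 to 0.13 for miR-200a-3p and -0.13 to 0.51 for miR-451a. For listed mRNA genes, 58 of 129 passed with 9 arrays as 9 samples and 12 with MCT 330 replicate 1 as a sample of its own (added after seeing the data), against 0; quantile normalization gave 0, with 30 at an unadjusted p under 0.05. The causes were not tested. Dim probes near 30 limit what could be compared.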
